A study of Mus musculus with 3 samples.

Results

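The genes of the MAP kinase cascade were examined in the cytosolic RNA of mouse macrophages, from the RAS switches at the top to the kinases that the MAP kinases phosphorylate. The 37 members were listed by gene symbol and matched to the 55536 genes of the deposited tables: 2 RAS genes, 2 RAF genes, 8 MAP3K genes, 7 MAP2K genes, 9 MAPK genes and 9 downstream kinase genes. All 37 symbols matched 1 gene each, and each is annotated as protein-coding. No measured value entered the choice of members, but it was made with earlier results of these data known.

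The samples form 1 group of 3 biological replicates. They are macrophages derived from bone marrow (BMDM) of the inbred mouse strain C57BL/6J, exposed to Lipid A at 100 ng/ml during 10 min. Cytosolic RNA was then separated, depleted of ribosomal RNA from a start of 1 µg and sequenced. Lipid A is the part of bacterial lipopolysaccharide that activates the receptor TLR4. All 3 libraries carry the same donor identifier, age and sex were not collected, and the labels do not name separate animals or cultures. Each SD below thus measures the spread between these 3 samples, which may be technical. The p of a chi-square test below measures departure from counting error in these 3 libraries, and that of a permutation test has these 3 libraries as its units. Untreated cells are not analysed here, so each value is a level shortly after stimulation and shows no change caused by Lipid A. The cells were cultured primary cells with no genetic change named in the labels.

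A MAP kinase cascade relays a signal through kinases that activate each other in turn. A MAP3K phosphorylates a MAP2K, which phosphorylates a MAPK on a threonine and a tyrosine, and the MAPK then acts on transcription factors and on further kinases. The ERK, JNK and p38 branches share this layout, and in macrophages all of them are activated within minutes of TLR4 engagement, mostly by phosphorylation of protein that is already present, which RNA does not measure.

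Depth ranged from 33825547 to 54667365 gene counts per library, and a transcript of 1 kb without a read could still be present at up to 3 counts, or 0.0294 to 0.045 TPM, counting error only. TPM is a share of all transcripts in a library, corrected for length, so levels of different genes can be set side by side. In the first of 2 deposited quantifications, used unless stated, protein-coding genes of the nuclear genome held only 23.5% to 25.6% of the TPM. Only that share is thus spread over the messenger RNAs. In the second quantification, made from the same reads, the share was lower, and it was highest in replicate 1. There the member Hras was at 10.05, 5.72 and 4.54 TPM in replicates 1, 2 and 3. Scaled over nuclear protein-coding genes alone, it was at 58.4, 63.9 and 55.9 TPM. Each of 10 macrophage markers reached 1 TPM in the 3 libraries, and their summed level lay between 6568 and 7512 TPM. Markers of some other cell types were at or near 0, but not those of all. The summed level stayed at or below 0.17 TPM for 3 B cell markers and 0.56 TPM for 4 dendritic cell markers. It stayed at or below 0.58 TPM for 3 mast cell markers and 0.06 TPM for 4 fibroblast markers, and 3 erythroid markers were at 0. Of 6 neutrophil markers, 3 reached 1 TPM in every library, the sum was between 23.6 and 37.9 TPM and Ly6g was at 0. Among 5 T and NK cell markers, only Cd4 reached 1 TPM in every library, at 19.08, 27.85 and 24.7 TPM in replicates 1, 2 and 3. Cd3e was at or below 0.09 TPM. In such bulk RNA, fewer cells of a type and less RNA per cell cannot be told apart.

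Of the 37 members, 31 reached 1 TPM in every library and the other 6 stayed below it in every library: Map3k6, Map2k6, Mapk11, Mapk12, Mapk13 and Rps6ka5. Over all 22028 protein-coding genes of the tables, 41.6% reached 1 TPM in every library. The members' median level was 10.9 ± 0.845 TPM (SD, n = 3), beside 7.58 ± 0.439 TPM over the 9164 protein-coding genes that reached 1 TPM in every library. The sets are unlike, since the members' median is over all 37 and includes the 6 below 1 TPM. The 6 low members were spread over 4 tiers, with 3 of them in the p38 family of MAPK genes. With TPM scaled over nuclear protein-coding genes alone, the members' median was 44.9 TPM and 34 members reached 1 TPM in every library. Over all genes, the number averaging at least 1 TPM rose from 9944 to 12061 on that scale. The number detected thus depends on the TPM scale, and the rise is not particular to the members.

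**Figure D1:**
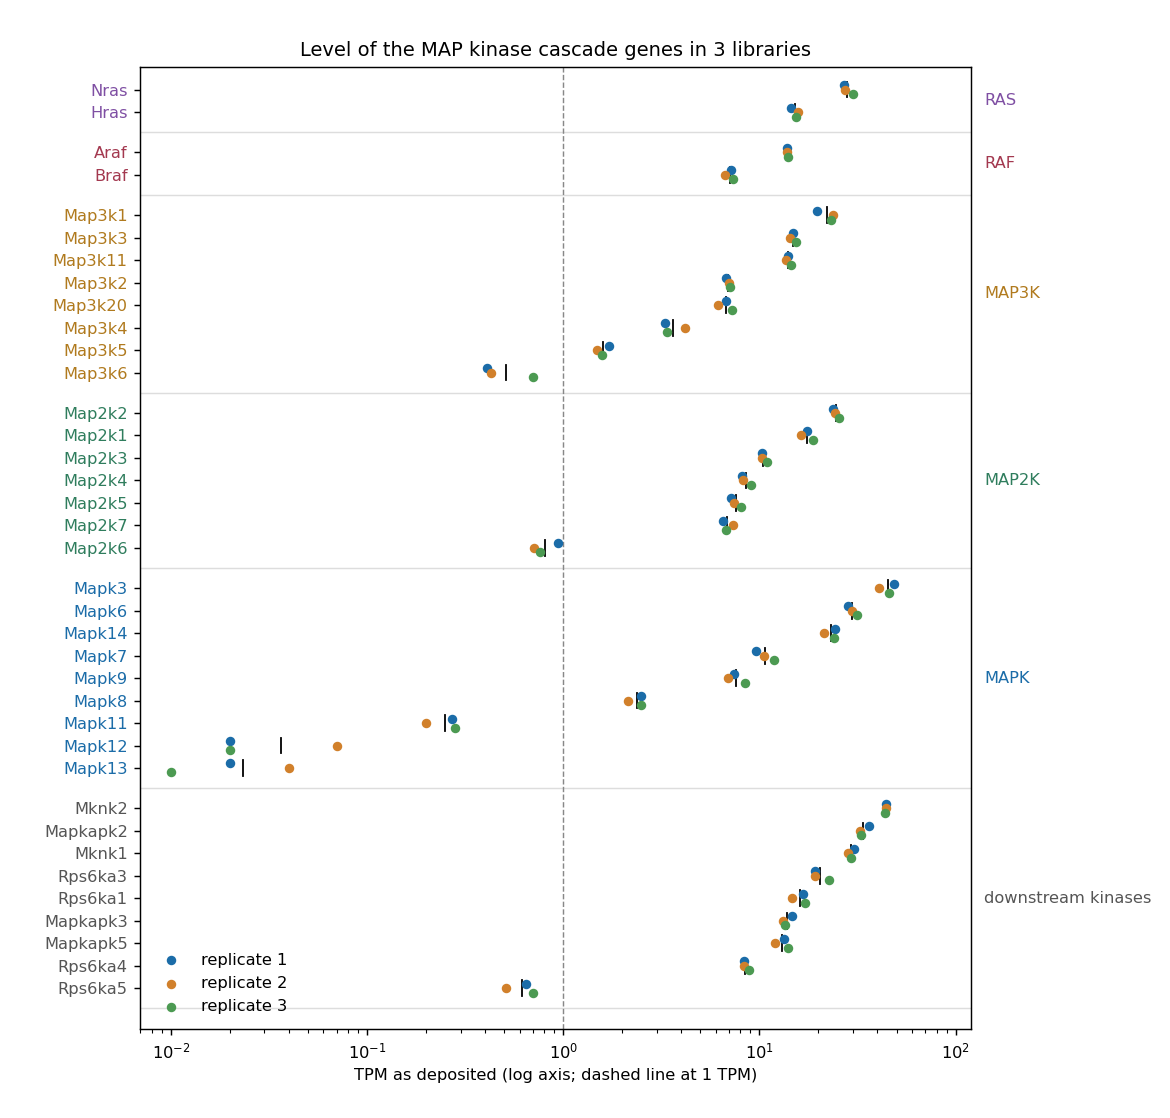
Deposited TPM of the 37 members in replicates 1, 2 and 3 on a log axis, grouped by tier of the cascade and ordered by mean, with a black bar at each mean and a dashed line at 1 TPM. Mapk3 and Mknk2 have the highest means, 45.1 and 44.04 TPM, and do not differ beyond their spread, and the 6 members left of the line include Mapk11, Mapk12 and Mapk13.

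At the top of the cascade both RAS genes were expressed. They encode small GTPases at the plasma membrane that recruit RAF kinases when bound to GTP. Nras stood at 27.0, 27.2 and 30.1 TPM in replicates 1, 2 and 3, and Hras at 14.4, 15.7 and 15.4 TPM. Every library held more Nras than Hras, and the groups of 3 values did not overlap. On the log2(TPM + 0.1) scale Nras exceeded Hras 1.85-fold, a log2 ratio of Hras to Nras of -0.88 ± 0.09 (SD, n = 3). The RAF kinases are the MAP3Ks of the ERK branch. Araf stood at 13.75, 13.76 and 13.97 TPM, and Braf, the family member with the highest basal kinase activity, stood at 7.17, 6.66 and 7.37 TPM. The level of Araf was 1.94 times that of Braf (log2 ratio 0.96 ± 0.07, SD, n = 3), again higher in 3 of 3 libraries. This ratio counts long and short transcripts together. Araf-201, with 1812 coding bases, held 54.3% of the Araf TPM, and Araf-202, with only 558, held 38.1%. The Braf transcripts annotated as protein-coding, Braf-201 and Braf-202, have 2412 and 2250 coding bases.

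The MAP3K genes ranged in mean level from 0.513 to 22.2 TPM. Map3k1, which encodes MEKK1, a kinase of the JNK branch that also carries ubiquitin ligase activity, was highest at 19.8, 23.7 and 23.2 TPM. Next came Map3k3 at 14.9 ± 0.495 TPM (SD, n = 3) and Map3k11, the mixed-lineage kinase MLK3, at 14.1 ± 0.371 TPM, which did not differ beyond the sum of their SDs. Map3k2 (6.95 ± 0.197 TPM) and Map3k20 (6.73 ± 0.540 TPM) did not differ beyond it either. Map3k2 and Map3k3 encode the related kinases MEKK2 and MEKK3, and Map3k3 was 2.13 times as high as Map3k2. The stress kinases of the ASK family were low: Map3k5 (ASK1), which responds to oxidative stress, stood at 1.71, 1.49 and 1.58 TPM, and its partner Map3k6 (ASK2) at 0.41, 0.43 and 0.70 TPM. Map3k4, which encodes MEKK4, lay between them and the others at 3.61 ± 0.487 TPM.

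The fold between the ASK genes depended on the processing. Map3k5 exceeded Map3k6 by 2.82-fold, by 1.72-fold with 1 TPM added in place of 0.1, by 3.99-fold when only protein-coding transcripts were summed, and by 3.75-fold in the second quantification, which the authors made from the same reads. Map3k6-204, annotated as a processed transcript and not as protein-coding, held 35.4% of the Map3k6 TPM in the first quantification and 0% in the second. Map3k5 was the higher gene in each case.

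Each MAP2K acts on a narrow set of MAPKs, and the genes are grouped here by main branch, which does not exclude action on another. For the ERK branch, Map2k2 (MEK2) was highest at 23.7, 24.2 and 25.5 TPM, followed by Map2k1 (MEK1) at 17.5, 16.3 and 18.7 TPM, and the groups did not overlap. Map2k2 was 1.40 times as high as Map2k1. Between the p38 branch partners Map2k3 and Map2k6, nearly all of the level came from Map2k3. Map2k3 (MKK3) stood at 10.3, 10.3 and 10.9 TPM and Map2k6 (MKK6) at 0.94, 0.71 and 0.76 TPM, an 11.8-fold difference that fell to 6.38-fold with 1 TPM added. For the JNK branch, Map2k4 (MKK4; 8.51 ± 0.472 TPM) and Map2k7 (MKK7; 6.88 ± 0.424 TPM) stood close together, with Map2k4 1.23 times as high. Map2k5 (MEK5), the activator of ERK5, was at 7.57 ± 0.473 TPM and differed from neither Map2k4 nor Map2k7 beyond the summed SDs.

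The MAPK tier held both the highest mean level and the lowest of the members. Mapk3 (ENSMUSG00000063065.13, chromosome 7, 126759601 to 126765819 in mm10), which encodes ERK1, stood at 48.6, 40.8 and 45.9 TPM. Its mean of 45.1 TPM and that of Mknk2, 44.04 TPM, lay within the sum of their SDs, and Mknk2 was ahead in replicate 2 and in the mean without replicate 1. The atypical MAPK gene Mapk6 (ERK3), whose product lacks the usual activation loop tyrosine, followed at 28.3, 29.5 and 31.4 TPM. Mapk14 (p38α; ENSMUSG00000053436.15, chromosome 17, 28691329 to 28748406) was at 24.4, 21.4 and 24.2 TPM. Mapk7, which encodes ERK5, the target of MEK5, was at 9.61, 10.5 and 11.9 TPM. The JNK genes were lower, with Mapk9 (JNK2) at 7.43, 6.88 and 8.45 TPM and Mapk8 (JNK1) at 2.50, 2.15 and 2.49 TPM. Mapk9 was 3.10 times as high as Mapk8 in level (log2 ratio of Mapk8 to Mapk9 -1.63 ± 0.09, SD, n = 3). Between branches, Mapk3 was 1.93 times as high as Mapk14 and 5.88 times as high as Mapk9, in 3 of 3 libraries each.

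The p38 family was represented almost wholly by Mapk14. Mapk11 (p38β) stood at 0.27, 0.20 and 0.28 TPM, from 40, 45 and 48 counts. Mapk12 (p38γ) was at 0.02, 0.07 and 0.02 TPM from 2, 11 and 2 counts, and Mapk13 (p38δ) at 0.02, 0.04 and 0.01 TPM from 1, 4 and 1 counts, in part under 3 counts, so no fold is given for them. Mapk14 exceeded Mapk11 by 67.1-fold, or by 19.4-fold with 1 TPM added, a difference far beyond the spread between replicates (log2 ratio 6.07 ± 0.08, SD, n = 3). In this first quantification the levels of Mapk12 and Mapk13 lay within the sum of their SDs. In the second, made from the same reads, Mapk12 (0.111 ± 0.0524 TPM, SD, n = 3) was above Mapk13 (0.0123 ± 0.00707 TPM) in every library. There Mapk12 lay close to Mapk11 (0.114 ± 0.0565 TPM), so the order of these low genes depended on the processing. That closeness is not one of protein-coding transcripts. In the second quantification Mapk12-202, annotated as a retained intron, held 84.9% of the Mapk12 TPM. Protein-coding transcripts held 2.07% of it, beside 100% in Mapk11. These low members lie beside other p38 genes. Mapk13 (chromosome 17, 28769297 to 28780233) begins 20890 bases after the end of Mapk14 on the same strand, and Mapk12 and Mapk11 lie 1782 bases apart on chromosome 15, also on 1 strand, with 0 protein-coding genes between the genes of either pair.

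The 16 pairs were tested over libraries by permutation, flipping signs exactly and two-sided. In 15 pairs the direction was the same in 3 of 3 libraries and the exact permutation test gave p = 0.25, the smallest that 3 libraries allow (0.267 after Benjamini-Hochberg adjustment over the 16 pairs), so no pair can pass 0.05 in this design. The remaining pair was Mapk12 and Mapk13.

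**Figure D2:**
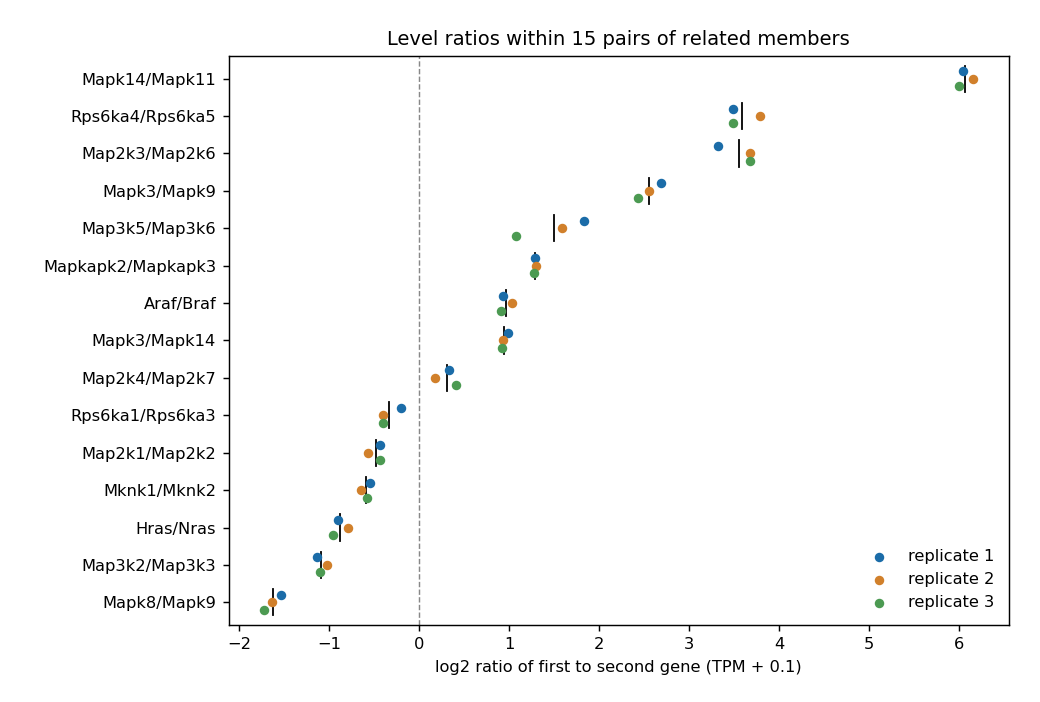
Log2 ratio of the first to the second gene of 15 pairs in replicates 1, 2 and 3, from TPM with 0.1 added, with a black bar at the mean and a dashed line at equal levels; the pair of Mapk12 and Mapk13 is left out because both are near 0. In each pair the 3 points lie on the same side of the line, from Mapk14 over Mapk11 at 6.07 to Mapk8 over Mapk9 at -1.63.

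Among the downstream kinases, Mknk2, Mapkapk2 and Mknk1 had the highest means. Mknk2 (ENSMUSG00000020190.13, chromosome 10, 80665327 to 80678112) and Mknk1 encode the kinases of the translation factor eIF4E, and stood at 44.4, 44.1 and 43.6 TPM and at 30.2, 28.2 and 29.2 TPM. Mknk2 was 1.51 times as high as Mknk1. Mapkapk2 (ENSMUSG00000016528.10, chromosome 1, 131053700 to 131097826), which encodes MK2, the p38 target needed for production of TNF in macrophages, was at 36.1, 32.6 and 32.9 TPM. Its relative Mapkapk3 (MK3) was at 14.7, 13.2 and 13.5 TPM. The Mapkapk2 to Mapkapk3 ratio was the most constant of the pairs, at 2.45-fold with a log2 ratio of 1.29 ± 0.01 (SD, n = 3). Mapkapk5 (PRAK), which binds ERK3, stood at 13.1 ± 1.03 TPM, within the summed SDs of Mapkapk3.

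The ribosomal S6 kinases of the RSK group are targets of ERK, while those of the MSK group are nuclear kinases of histone H3 and CREB. For RSK, Rps6ka3 (RSK2) was at 19.2, 19.3 and 22.5 TPM and Rps6ka1 (RSK1) at 16.6, 14.6 and 17.0 TPM, a 1.26-fold difference. For MSK, Rps6ka4 (MSK2) was at 8.31, 8.32 and 8.85 TPM and Rps6ka5 (MSK1) at 0.65, 0.51 and 0.70 TPM. Rps6ka4 exceeded Rps6ka5 by 12.01-fold, by 5.87-fold with 1 TPM added and by 7.38-fold in the second quantification. The tier as a whole summed to 180 ± 5.86 TPM, the largest sum of the tiers, beside 119 ± 6.73 TPM for the 9 MAPK genes.

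Other genes of the pathway were described from lists chosen with earlier results known. Of 26 other kinase and RAS genes of the same naming families, 16 reached 1 TPM in every library and 3 were listed at 0 throughout, among them the neuronal JNK gene Mapk10 and Rps6ka6. Map4k4, which acts above MAP3Ks, was at 18.7 ± 0.735 TPM (SD, n = 3) and Rras at 12.9 ± 0.935 TPM. Map3k8 (TPL2), which links TLR4 to MEK, stood at 6.75 ± 0.922 TPM and Map3k7 (TAK1), which links it to JNK and p38, at 6.10 ± 0.339 TPM; both were picked after values were seen, for that role. Of 21 RAS regulators, 17 reached 1 TPM in every library. The adaptor Grb2 led them at 110 ± 11.9 TPM, followed by the RAS inactivators Rasa4 (29.1 ± 0.607 TPM) and Rasa3 (25.09 ± 1.008 TPM), while Rasal1 (0.0767 ± 0.0451 TPM) and the lymphocyte exchange factor Rasgrp1 (0.0333 ± 0.0115 TPM) were lowest.

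Among 14 scaffold genes 10 reached 1 TPM in every library. Iqgap1 stood at 124 ± 9.60 TPM, the RAF inhibitor Pebp1 at 50.2 ± 3.40 TPM and Arrb2, a beta-arrestin, at 46.1 ± 2.74 TPM, whereas the JNK scaffold Mapk8ip1 was at 0.0533 ± 0.0351 TPM and Mapk8ip2 was listed at 0. The Sprouty and Spred genes, feedback inhibitors of the RAS to ERK route, were mostly low, and 2 of 7 reached 1 TPM in every library. Spred1 was at 9.26 ± 1.12 TPM, Spred2 at 1.45 ± 0.296 TPM and Spry2 at 0.87, 1.36 and 1.79 TPM, with Spry1 at 0.03 ± 0.0173 TPM and Spry4 listed at 0.

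The 3 libraries were then compared with each other. The counts of 16 of 35 members tested (45.7%) differed between libraries beyond counting error, beside 50.1% of all 13494 genes tested (chi-square test against edgeR TMM library sizes, Benjamini-Hochberg adjusted p below 0.05), so the members' share is near the background. The differences were small. Among called members the highest library exceeded the lowest by a median of 1.11 times in normalised CPM (counts scaled by library size), from 1.05 for Nras to 1.51 for Map3k6, beside 1.21 times over all called genes. None of the 31 members averaging at least 1 TPM reached 2-fold between the highest and the lowest library in TPM, beside 3.59% of all genes at that level. The members' median SD was 0.08 on the log2(TPM + 1) scale, beside 0.10 over those genes.

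Downstream kinases were among the members with the smallest adjusted p. Mapkapk2 was at 178, 166 and 153 normalised CPM in replicates 1, 2 and 3 (edgeR TMM scaling, chi-square test, adjusted p = 2.53e-16), Mapkapk3 at 69.5, 65.5 and 60.7 (adjusted p = 2.91e-05) and Mknk1 at 118.6, 112 and 107 (adjusted p = 2.34e-05). All 3 were called under each alternative run. They were highest in replicate 1 on every scale compared, and lowest in replicate 3 except in deposited TPM, where replicate 2 was lowest. Mapk14 (139, 130.1 and 133) and Mapk3 (141, 124 and 127) were also highest in replicate 1, with edgeR-scaled adjusted p of 0.0054 and 4.23e-10. Without replicate 1 neither was called (adjusted p = 0.321 and 0.324). Neutrophil markers summed to 23.6 TPM in replicate 1 and to 37.9 and 35.9 TPM in replicates 2 and 3, and their part in these differences was not tested.

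Other members had another order. In normalised CPM, Rps6ka3 (211, 218 and 235 normalised CPM, edgeR-scaled adjusted p = 3.36e-12) and Mapkapk5 (20.8, 22.3 and 24.9) were highest in replicate 3, as was Map3k6 (2.36, 2.44 and 3.56). Hras, Nras, Araf, Map3k1, Map3k2, Map2k2, Mapk6 and Mknk2 were highest in replicate 2, with Map3k1 at 218, 238 and 230.1 (edgeR-scaled adjusted p = 4.3e-08) and Mknk2 at 244, 252 and 226 (adjusted p = 9.54e-14). These orders depended on the scaling. In deposited TPM the highest library was another one for 6 of the 16 called members: replicate 3 for Nras, Araf, Map3k2, Map2k2 and Mapk6, and replicate 1 for Mknk2. It was another one for Nras, Mapkapk5 and Mknk2 in TPM scaled over protein-coding genes, and for Nras and Araf with DESeq2 size factors. Of the 16 calls, only those of Mapkapk2, Mapkapk3 and Mknk1 held with each library left out. Leaving out replicate 1 ended the call for Nras, Map3k1, Map2k2, Mapk3 and Mapk14, with edgeR-scaled adjusted p between 0.05 and 0.952. Leaving out replicate 2 ended it for Hras, Araf, Map3k2, Map2k2, Mapk6 and Mapk14 (adjusted p between 0.0796 and 0.972). Without replicate 3 it ended for Araf, Map3k2, Map3k6, Mapkapk5, Rps6ka3 and Mknk2 (adjusted p between 0.0871 and 0.924). The members called were then 12 (34.3%), 11 (31.4%) and 12 (34.3%), beside 27.5%, 42.2% and 35.5% of all genes tested.

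**Figure D3:**
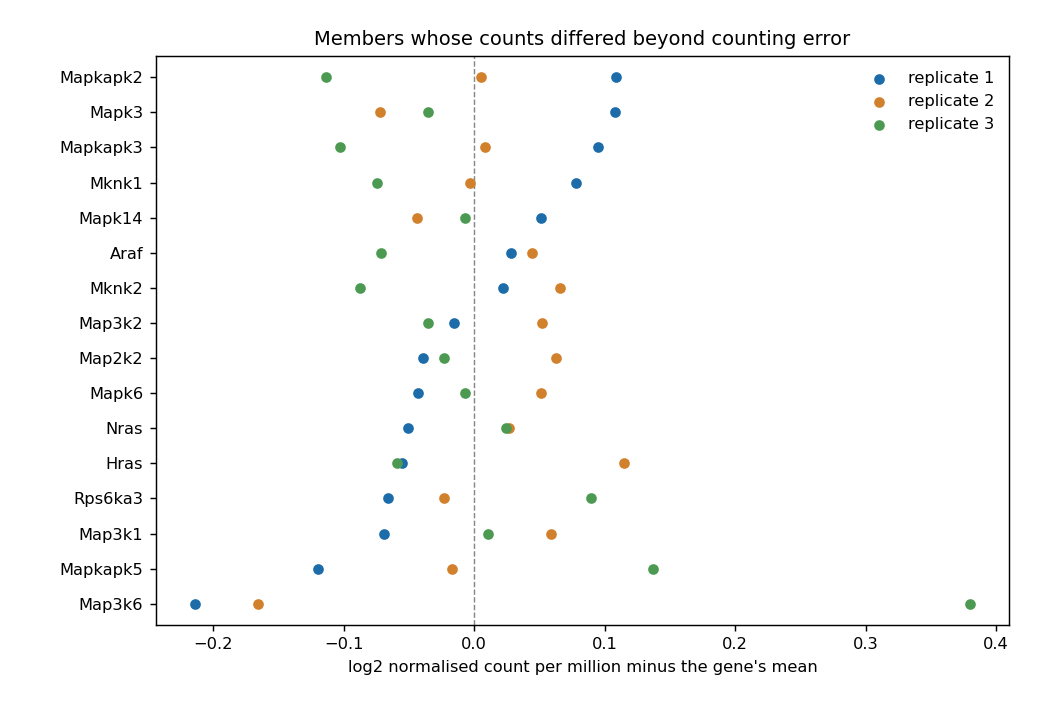
Log2 of normalised CPM in replicates 1, 2 and 3 minus the gene's mean over libraries, for the 16 members whose counts differed beyond counting error, ordered by replicate 1. Mapkapk2, Mapkapk3 and Mknk1 have replicate 1 farthest right and replicate 3 farthest left, and the widest spread is that of Map3k6 at 1.51 times.

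Which annotated transcripts held each gene's level was examined next. The transcripts annotated as protein-coding held most of the TPM of every detected member: 0 of 31 fell under 50%, beside 4.18% of all protein-coding genes averaging at least 1 TPM. The members' median was 96.0%, beside 97.5% over all those genes. Map3k11 (61.0% ± 2.76, SD, n = 3), Mapk7 (74.4% ± 1.91) and Map3k4 (74.7% ± 10.0) had the lowest shares by this measure. In the second quantification Mapk7 was lowest at 63.4%, and Map3k11 was at 77.8%. As a share of counts, Map3k4 was at 97.6%. In Map3k11 a transcript annotated for nonsense-mediated decay, Map3k11-204, held 31.8% ± 3.52, or 13.6% ± 5.92 in the second quantification. The transcript with the largest share was the same in both quantifications in 28 of the 31 genes and differed in Map2k7, Mapk14 and Mknk2.

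JNK and p38 genes carry pairs of mutually exclusive coding exons, of which a transcript holds 1. In the JNK proteins this choice is known to affect the binding of substrates. Such pairs were found in 3 members, Mapk8, Mapk9 and Mapk14, as exons of the same length between the same neighbours in the annotation. They are shown because the choice of exon separates the products of 1 gene, with the first exon being the one met first in transcription. The sequences are read in the direction of transcription from the transcripts of GENCODE M21 (mm10), and capitals mark the bases that differ from the partner exon at the same position.
Mapk8 first exon: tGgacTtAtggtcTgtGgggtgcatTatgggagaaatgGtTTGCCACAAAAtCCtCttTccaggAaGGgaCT
Mapk8 second exon: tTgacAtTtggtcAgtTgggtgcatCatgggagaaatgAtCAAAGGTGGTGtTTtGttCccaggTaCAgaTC
Mapk9 first exon: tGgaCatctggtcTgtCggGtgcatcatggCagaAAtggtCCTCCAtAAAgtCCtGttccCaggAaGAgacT
Mapk9 second exon: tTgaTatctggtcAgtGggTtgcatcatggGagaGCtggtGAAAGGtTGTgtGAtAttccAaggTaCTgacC
Mapk14 first exon: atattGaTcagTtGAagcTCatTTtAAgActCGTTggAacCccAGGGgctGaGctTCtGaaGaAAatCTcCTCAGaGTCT
Mapk14 second exon: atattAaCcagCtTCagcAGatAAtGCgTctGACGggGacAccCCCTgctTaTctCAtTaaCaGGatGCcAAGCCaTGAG

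The Mapk8 exons lie at chr14:33390673-33390744 and chr14:33390242-33390313 on the minus strand and are identical at 45 of 72 positions. The Mapk9 exons lie at chr11:49873836-49873907 and chr11:49874264-49874335 on the plus strand and are identical at 47 of 72. Across the genes, the first exons of Mapk8 and Mapk9 matched at 59 positions and the second exons at 57, more than either exon matched its partner within its gene. The Mapk14 exons, at chr17:28737011-28737090 and chr17:28740680-28740759 on the plus strand, are identical at 39 of 80 positions. All 6 exons lie wholly within the coding sequence.

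Each of the 3 genes had a clear majority exon, and it was the second exon in both JNK genes. Of the Mapk8 TPM in transcripts with either exon, the second exon held 65.4%, 62.8% and 67.4% in replicates 1, 2 and 3. In Mapk9 the second exon held 94.1%, 93.2% and 92.1%, so its share was higher than in Mapk8 in every library, with no overlap. In Mapk14 the first exon held 90.03%, 87.32% and 88.5%. The second quantification gave 73.3% ± 0.665 (SD, n = 3) for the Mapk8 second exon, 89.6% ± 1.97 for that of Mapk9 and 88.5% ± 1.60 for the Mapk14 first exon. The order of the exons was the same in every library of both quantifications.

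Start sites were compared in the 7 members with RefSeq starts at least 500 bases apart, each transcript being assigned to a start within 300 bases. The starts themselves were not measured. Each share sums the estimated TPM of annotated transcripts, and so rests on how the quantification divided reads among them. In Map2k4, Map2k6 and Map2k7 the first start held 99.1%, 100% and 89.4% of the gene's TPM, and in Mapk6 it held 75.1% ± 1.59 (SD, n = 3). In Mapk8 the second start, 36134 bases downstream, held 36.5%, 25.1% and 36.1%. Rps6ka1 (ENSMUSG00000003644.17, chromosome 4, 133847290 to 133887797, minus strand) had most of its TPM assigned to an internal start 13066 bases downstream of the first. The transcript Rps6ka1-206, which begins there, held 75.6%, 81.3% and 81.3%. The first start held 10.3%, 5.06% and 3.76%, and the third, 1696 bases further on, 14.02%, 13.13% and 13.35%. In the second quantification the internal start held 70.4% ± 0.937, the first 7.93% and the third 19.2%.

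The sequences of the first and second of the 3 Rps6ka1 starts are shown because they differ in composition as well as in estimated share. Each runs from 250 bases before to 50 after the start as given by RefSeq (GRCm38.p6), 5′ to 3′ on the gene's strand, and capitals mark CpG, the letters CG, the site of DNA methylation, which is dense in promoters that are active in many tissues.
Rps6ka1 first start: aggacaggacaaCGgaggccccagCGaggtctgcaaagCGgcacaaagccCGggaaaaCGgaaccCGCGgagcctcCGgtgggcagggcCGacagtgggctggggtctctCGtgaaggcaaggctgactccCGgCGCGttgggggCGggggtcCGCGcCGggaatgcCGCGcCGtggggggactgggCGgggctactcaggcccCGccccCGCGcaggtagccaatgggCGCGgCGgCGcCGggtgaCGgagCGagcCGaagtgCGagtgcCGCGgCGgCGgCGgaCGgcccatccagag
Rps6ka1 second start: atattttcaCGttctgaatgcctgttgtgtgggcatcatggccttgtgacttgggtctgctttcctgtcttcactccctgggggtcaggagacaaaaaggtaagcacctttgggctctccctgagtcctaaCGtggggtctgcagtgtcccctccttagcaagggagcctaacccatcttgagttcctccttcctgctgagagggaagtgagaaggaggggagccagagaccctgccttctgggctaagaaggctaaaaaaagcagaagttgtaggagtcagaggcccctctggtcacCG

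The first window (chr4:133887748-133888047) holds 39 CpG and 74.7% G and C, and the second (chr4:133874682-133874981) 3 CpG and 54.0%. The third, not shown, holds 6 CpG and 62.0%. Over all 32851 RefSeq windows of this length the median was 7 CpG and 52.7%. The second Rps6ka1 window holds GAGGAA, searched on both strands, in letters that share no base with a CpG. They are the core letters of motifs bound by ETS factors such as PU.1, the main ETS factor of macrophages. This hexamer occurs in 28.3% of all windows. With 1 window per gene, that with most CpG, it occurs in 28.1% of 27025 genes and in 17.6% of the 34 members with an entry. Rps6ka1 enters that share with its first window, which lacks the hexamer. The presence of the hexamer in the second window is a description only. Entries were used for 34 of 37 members, without Mapk3, Rps6ka3 and Map3k2. The members' median was 28 CpG, beside 8 CpG over the window with most CpG of 27025 genes. Those genes were not limited to protein-coding or expressed ones, as most members are, so the difference cannot be called particular to the members.

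The members below 1 TPM included some with many CpG. Among these 6 members the median was 19 CpG, beside 28.5 CpG in the 28 members at 1 TPM or more, and Mapk13, the highest of the 6, had 34 beside 33 for the first start of Mapk14. The windows of these neighbours are shown because 1 gene was near 0 and the other among the highest members, together with the second Mapk14 start. Their positions are chr17:28691092-28691391, chr17:28692318-28692617 and chr17:28769067-28769366 on the plus strand, and capitals again mark CpG.
Mapk14 first start: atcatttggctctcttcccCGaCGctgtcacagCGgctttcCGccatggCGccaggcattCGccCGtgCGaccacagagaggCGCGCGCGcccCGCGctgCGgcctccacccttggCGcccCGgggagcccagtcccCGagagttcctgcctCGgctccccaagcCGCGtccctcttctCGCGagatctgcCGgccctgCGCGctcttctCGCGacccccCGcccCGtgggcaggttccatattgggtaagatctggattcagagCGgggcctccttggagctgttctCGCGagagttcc
Mapk14 second start: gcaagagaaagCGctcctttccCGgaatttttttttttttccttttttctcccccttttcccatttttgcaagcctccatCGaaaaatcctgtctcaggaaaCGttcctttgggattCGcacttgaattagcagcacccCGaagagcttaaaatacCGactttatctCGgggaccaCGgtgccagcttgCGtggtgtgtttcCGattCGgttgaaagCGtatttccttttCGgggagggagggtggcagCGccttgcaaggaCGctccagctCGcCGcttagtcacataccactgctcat
Mapk13 start: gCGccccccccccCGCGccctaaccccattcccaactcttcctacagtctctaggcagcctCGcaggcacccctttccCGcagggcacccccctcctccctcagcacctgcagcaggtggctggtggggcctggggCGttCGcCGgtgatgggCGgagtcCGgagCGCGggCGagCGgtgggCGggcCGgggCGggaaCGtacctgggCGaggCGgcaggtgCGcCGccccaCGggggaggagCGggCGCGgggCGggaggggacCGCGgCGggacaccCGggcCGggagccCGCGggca

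The 2 Mapk14 starts lie 1226 bases apart, and their shares differed between libraries. The first start held 42.8%, 59.9% and 59.3% of the Mapk14 TPM in replicates 1, 2 and 3 and the second 54.75%, 39.86% and 40%. Replicate 1 thus had the second start ahead and replicates 2 and 3 the first. In the second quantification the first start led in every library, at 56.5%, 75.5% and 73.0%, and replicate 1 was again the lowest. At the first start, Mapk14-202 has 1080 coding bases and Mapk14-204 has 849. Mapk14-203, the only transcript at the second start, has 849.

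In 2 further members, long and short forms of the protein are known. Map3k20 encodes the kinase ZAK. Its shorter form Map3k20-204 (1362 coding bases) held 73.5%, 72.3% and 69.7% of its TPM. The longer Map3k20-201 (2406 coding bases) held 22.3%, 27.1% and 28.8%. The second quantification gave 68.9% ± 1.69 and 26.5% ± 3.57 (SD, n = 3). In Mknk2 the answer depended on the quantification. Mknk2-201 (1236 coding bases) held 67.4%, 65.5% and 65.2% in the first quantification and 33.1%, 30.3% and 30.1% in the second, where Mknk2-205 (1377 coding bases) led with 62.0%, 68.2% and 66.8%. The shares from the 2 quantifications did not overlap for either Mknk2 transcript.

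**Figure D4:**
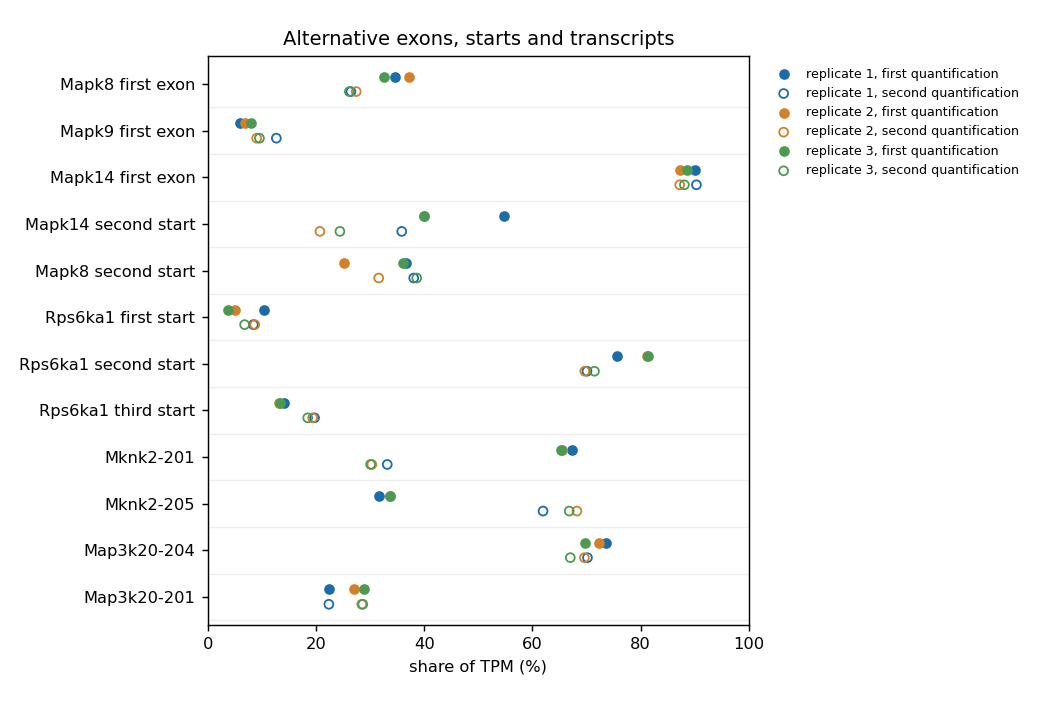
Share of TPM in percent for the first of the alternative exons (of transcripts with either exon), for start sites and for single transcripts (of the whole gene), with filled points for the first and open points for the second quantification of replicates 1, 2 and 3. Filled and open points change order for Mknk2-201 and Mknk2-205, and lie close together for the Mapk14 exon.

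Gene totals depended less on the quantification than single transcripts did. After scaling over protein-coding genes, 0 of 28 members at 5 TPM or more in either quantification differed by 2-fold or more, beside 3.25% of the 6176 genes tested. The log2 ratio of second to first ran from -0.08 for Map2k7 to 0.28 for Mapk9, with a median of 0.01. Among members too low for this comparison, Mapk12 had the largest ratio (log2 ratio 2.17 ± 0.43, SD, n = 3). Its means were 0.153 and 0.971 TPM on that scale, both below 1 TPM. Rps6ka5 differed by 0.63 ± 0.13 on the log2 scale, and its protein-coding transcripts held 94.3% of its TPM in the first quantification and 42.9% in the second.

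**Figure D5:**
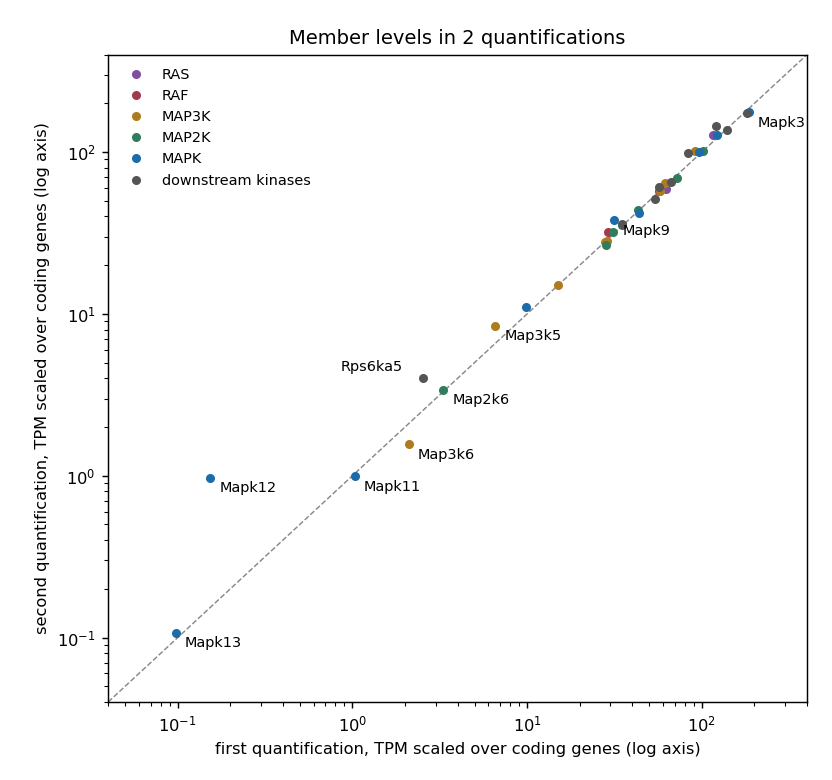
Mean level of each member over 3 libraries in the first and the second quantification, both scaled over nuclear protein-coding genes alone, on log axes with a dashed line of equality and colours for the tiers. The detected members lie along the line, and Mapk12 is the point farthest from it at 0.153 and 0.971.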

How the data were processed

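Total RNA-seq of 3 libraries of 1 group was used. The authors deposited, for each library, a gene table and a transcript table with expected counts and TPM (first quantification, in the column layout of RSEM) and a transcript table with estimated counts and TPM (second quantification, in that of kallisto), made with mm10 and GENCODE M21 per the file headers and labels. No aligner or quantifier is named in the sources used here. Symbols, biotypes and coordinates came from GENCODE M21.

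Levels are the deposited gene TPM. Pair ratios used log2(TPM + 0.1), spreads log2(TPM + 1). Expected counts were rounded and tested per gene with a chi-square test (2 degrees of freedom) against TMM effective library sizes of edgeR 4.0.16, where a gene had at least 30 counts in sum, adjusted over all genes; DESeq2 1.42.0 size factors were an alternative. Counts of 13494 genes were also simulated with counting error only. On these, the test called 73% of genes changed 1.5-fold in 1 library, 92% of those changed 2-fold and 0.0752% of unchanged genes. The simulation held no other spread between libraries, so these shares are not error rates for the real libraries. Other software was R 4.3.3, matplotlib 3.10.9, pandas 2.3.3, scipy 1.17.1, numpy 2.4.6 and Python 3.11.15.

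All members could be named; of each other list, the 3 genes highest and the 2 lowest in mean TPM, plus Map3k7 and Map3k8. A few genes picked by this rule are not reported here. Members and lists were chosen with earlier results of these data known. Alternatives varied the quantification, scale, pseudocount, filters, transcripts and libraries used.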

Additional observations from a re-analysis of the deposited data

How the results depend on the processing

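No paired analysis was possible because the samples form 1 group, so replicate numbers pair no samples between groups. Ratios of genes were taken within each library. The members' median level of 10.9 TPM was 44.9 TPM when scaled over protein-coding genes and 5.03 TPM in the second quantification. There 29 members reached 1 TPM in every library, a count given without the share over all genes. The median protein-coding share of 96.0% was 93.5% in the second quantification and 99.1% as a share of counts. With TPM as deposited, the median log2 ratio between quantifications was -1.14 and 25 of 28 members passed 2-fold, beside 83.5% of all genes tested. The count of members differing between libraries was 18 (51.4%, beside 49.7% of all genes) with DESeq2 size factors, where Map2k2 was lost (adjusted p = 0.054), 15 (40.5%, beside 31.7%) without a minimum count, where Araf was lost (adjusted p = 0.0672), and 22 (61.1%, beside 58.9%) in the second quantification, where Mapk14 was lost (adjusted p = 0.128). No pair ratio changed direction under the alternatives run, but sizes did change. Of the alternative log2 ratios, 26 lay at least the SD between libraries away from the main ratio and 70 lay nearer. Mknk2 over Mknk1 was 1.51-fold in the main run, 1.22-fold in the second quantification and 1.71-fold with protein-coding transcripts only. Nras over Hras was 1.85-fold, 2.14-fold and 2.17-fold in the same order. Levels below 1 TPM and transcript shares of Mapk12 and Mapk13 rest on few counts. Strandedness is not given in the sources used here, so reads of overlapping antisense genes cannot be told apart.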
